A study of Mus musculus with 2 samples.

Results

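Ca2+/calmodulin-dependent protein kinase II (CaMKII) is encoded by 4 mouse genes, Camk2a, Camk2b, Camk2d and Camk2g, and the Mbnl2 tags on the strand of these genes were counted in quadriceps muscle. They were chosen by name as the whole gene family, 4 of 22380 protein-coding genes on assembled chromosomes, and their tags were split into the 3'UTR, the variable linker exons with 300 nt on each side, other exons and other introns. In HITS-CLIP, ultraviolet light fixes a protein to RNA in powdered tissue, RNase A shortens that RNA, and the fragments pulled down with the protein are sequenced as tags. Quadriceps of 3 WT and 3 Mbnl1-/- (Mbnl1 KO) mice aged 15 to 16 weeks was used, with the Mbnl2 antibody mAb 3B4. The labels give the strain of both groups as C57BL/6, whereas the methods describe the knockout as a deletion of exon 3 of Mbnl1 (the ΔE3 allele) and place the compound knockouts on a mixed C57BL/129 background. The genotype labels, WT and Mbnl1-/-, do not mention Mbnl2. The paper reports raised Mbnl2 protein in Mbnl1 KO skeletal muscle, and a stronger Mbnl2 band in the immunopurified complexes of Mbnl1 KO quadriceps. The gene body of Mbnl1 held 100 WT and 452 Mbnl1 KO tags, but its annotated first coding exon (chr3:60333071-60333726) held 0 in both tables, so these tags are no check of the genotype labels.

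The mice of a genotype, 3 each, were merged into 1 table, which gives no spread between animals, and the genotypes were therefore compared without a test. There were 343554 tags in the WT and 476543 in the Mbnl1 KO table, of 18 to 33 nt, from 5176203 and 50329234 reads. The tables do not say which tags came from the high (38.6 U/ml) or the low (0.0386 U/ml) RNase A concentration. A tag counts once however many reads it stands for. Counts divided by the tags of the table and given per 1000000 tags are called scaled tags. Ratios below are Mbnl1 KO over WT in scaled tags, and each interval is an exact 95% Clopper-Pearson interval that covers counting error only. The tables also differ in kind. Tags made of at least 70% of 1 base, called single-base tags here, were 44.0% of WT and 17.0% of Mbnl1 KO tags on assembled chromosomes, and tags of 1 read were 79.0% and 59.5%. For this reason the main ratios are also given without single-base tags, and the part of this difference in the ratios was not tested.

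In a CaMKII subunit, the kinase and its calmodulin-binding regulatory segment are followed by a variable linker and by an association domain that joins the subunits into a ring-shaped holoenzyme. Most isoform differences come from alternative splicing of the linker exons. Camk2a and Camk2b are the main neuronal genes, Camk2d and Camk2g are widely expressed, and skeletal muscle also uses an internal promoter of Camk2a to make αKAP, a protein without the kinase domain that anchors the holoenzyme at the sarcoplasmic reticulum. Muscleblind-like proteins bind RNA at YGCY motifs, control alternative splicing from sites near exons and also bind 3'UTRs.

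Sites in the 3'UTRs and in the linker carried the positions described below, and the sequences under them are printed first. They were read from the mm9 genome (NCBIM37), 5' to 3' on the strand of the gene, as windows of at most 30 nt. Capitals mark the motif YGCY, the letters GC with a T or C directly before and a T or C directly after (such as TGCT), searched on the strand of the gene only, with overlapping matches counted. The first 3 windows are the centres of the Camk2b 3'UTR clusters with the most tags, on the minus strand, where the first holds 4 matches and the second none:
Camk2b 3'UTR, chr11:5871286-5871315: cctgagagtTGCTGCTGCTccTGCTttccc
Camk2b 3'UTR, chr11:5871436-5871465: accgtgttagtctgtaggtaccgcactcac
Camk2b 3'UTR, chr11:5869727-5869756: TGCTgagttccactgtcttttctttctgag
The next windows, on the plus strand, lie under Camk2d. The first is in the 3'UTR of a short transcript, the following pair is in the terminal 3'UTR, and the last is an A-rich stretch of an intron that held more WT than Mbnl1 KO tags:
Camk2d 3'UTR, short transcript, chr3:126519639-126519668: tcaattagTGCTGCTcTGCTtcagacctgc
Camk2d 3'UTR, chr3:126546460-126546489: tgtatactattTGCTccatttctttgtatt
Camk2d 3'UTR, chr3:126547631-126547660: tagatccagtttgtcttctgcactaagatg
Camk2d intron, chr3:126391704-126391733: aaaaaaaaaaaaaaaaaaacacaaaaacca
The last set shows tags at or beside variable linker exons, given because few tags lay there and each position can be shown. Camk2b and Camk2g are on the minus strand and Camk2d on the plus strand, and the Camk2d windows hold no match:
Camk2b linker, chr11:5882502-5882529: aaggatctctccctccTGCTGCCctggt
Camk2b linker, chr11:5878525-5878544: atctacTGCTTGCTtctgtt
Camk2d linker, chr3:126508660-126508679: atctccaagggcttttgatt
Camk2d linker, chr3:126511005-126511034: tacctggctttagctcttgtcactagtctt
Camk2g linker, chr14:21566978-21567007: aTGCTGCTtgTGCCCGCCTGCCagccatgc
Camk2g linker, chr14:21564859-21564888: gtgttaccccgcaggccccTGCCcttcatc

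Over whole gene bodies, Camk2a, Camk2b and Camk2g had at least 2 times as many scaled Mbnl2 tags in Mbnl1 KO as in WT muscle, and Camk2d had 1.32 times as many. Together the ratio was 1.95 (95% interval 1.51 to 2.55), from 83 WT and 225 Mbnl1 KO tags, and 1.75 (1.31 to 2.38) without single-base tags. It was 1.41 (0.944 to 2.17) with tags of 1 read also left out, and 3.15 (2.05 to 4.96) with tags of at least 30 nt. Many other genes had a ratio as high as the main value of 1.95. Among the 3888 protein-coding genes with at least 20 pooled tags, 41.6% had a ratio of at least 2 and 38.6% had an interval above 1, and the median ratio was 1.75 with quartiles of 1.12 and 2.68. Of the 4 CaMKII genes, 3 had a ratio of at least 2, and the same 3 had an interval above 1. With so few members, these counts are read only as values beside that background. All 4 genes had at least 20 pooled tags. Tags reflect the amount of RNA, the amount of Mbnl2 protein and the binding between them. The paper reports more Mbnl2 protein in Mbnl1 KO muscle, and in this design its part in the ratios cannot be told apart. RNA levels were not analysed here, and in whole muscle fewer cells of a type and less RNA per cell cannot be told apart.

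**Figure D1:**
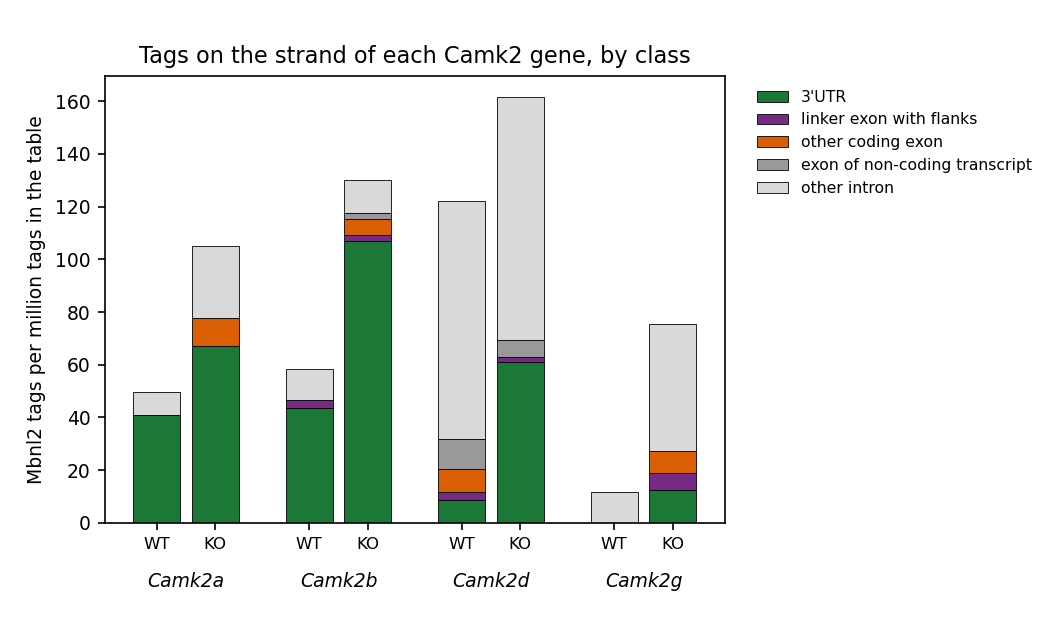
Stacked bars give the Mbnl2 tags per 1000000 tags of the table for each Camk2 gene in WT and Mbnl1 KO (KO) quadriceps, coloured by the class of the tag, with 1 merged table per genotype and no error bars. The 3'UTR makes up most of the Camk2a and Camk2b bars in both genotypes, and introns most of the Camk2d and Camk2g bars.

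Camk2d (chr3:126299220-126547972, plus strand), the longest of the genes at 249 kb, had the most tags, 42 in WT and 77 in Mbnl1 KO. These are 122 and 162 scaled tags, a ratio of 1.32 whose interval of 0.896 to 1.97 includes 1. Camk2b (chr11:5869647-5966365, minus strand) had 20 and 62 tags, or 58.2 and 130 scaled tags, a ratio of 2.23 (1.33 to 3.91). Here the interval lay above 1. Camk2a (chr18:61085272-61147806, plus strand) had 17 and 50 tags, or 49.5 and 105 scaled tags, a ratio of 2.12 (1.20 to 3.92). Without single-base tags its ratio was 1.48 (0.823 to 2.78), so its interval no longer excluded 1. Camk2g (chr14:21554097-21613310, minus strand) had only 4 WT tags against 36 in Mbnl1 KO, 11.6 and 75.5 scaled tags, a ratio of 6.49 (2.33 to 25.1). The Camk2g ratio exceeded that of 96.4% of the 3888 genes, but it rests on these 4 WT tags. Without single-base tags it was 4.06, against 2.18 for Camk2b and 1.32 for Camk2d, and the share of genes with a ratio of at least 2 was then 29.1%. With tags of at least 2 reads, the intervals of all 4 genes included 1, at ratios of 1.41 for Camk2a, 1.49 for Camk2b, 1.56 for Camk2d and 3.36 for Camk2g.

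**Figure D2:**
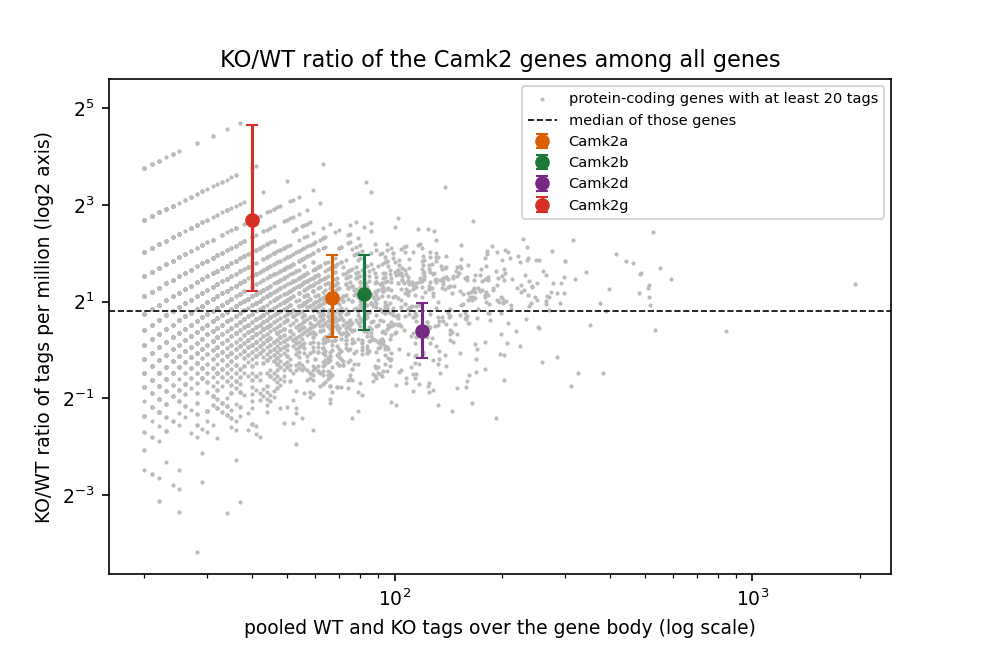
Each grey point is a protein-coding gene with at least 20 pooled tags and tags in both tables, placed by its pooled tags (log axis) and its Mbnl1 KO over WT ratio of scaled tags (log2 axis). Coloured points are the 4 Camk2 genes with exact 95% intervals, and the dashed line is the median ratio of 1.75. Camk2d lies below the line and the other 3 genes above it.

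Per kilobase of gene body, the order of the genes differed between genotypes. In WT, Camk2a had 0.791 scaled tags per kilobase, Camk2b 0.602, Camk2d 0.491 and Camk2g 0.197. In Mbnl1 KO the values were 1.68 for Camk2a, 1.35 for Camk2b, 1.28 for Camk2g and 0.650 for Camk2d. The intervals of the Camk2g and Camk2d ratios, 2.33 to 25.1 and 0.896 to 1.97, did not overlap, whereas those of Camk2a, Camk2b and Camk2d did. The Camk2g and Camk2d intervals did overlap without single-base tags (1.44 to 15.8 and 0.822 to 2.18), with identical tags collapsed (lower bound 1.76 for Camk2g, upper bound 1.90 for Camk2d), with tags of at least 2 reads (0.804 to 29.9 and 0.796 to 3.34), with both filters (0.675 to 25.1 and 0.684 to 3.07) and with tags of 1 match in the genome (2.33 to 25.1 and 1.04 to 2.51). These intervals compare the merged tables, not mice.

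Mbnl2 tags on Camk2a and Camk2b lay mainly in the 3'UTR. The 3'UTRs of the 4 genes held 32 WT and 118 Mbnl1 KO tags. Their ratio was 2.66 (1.79 to 4.06), or 2.07 (1.36 to 3.25) without single-base tags. It was 1.59 (0.920 to 2.91) with tags of 1 read also left out, and 5.46 (2.54 to 13.4) with tags of at least 30 nt. Over the 867 protein-coding genes with at least 20 pooled 3'UTR tags, the median ratio was 3.24, 86.6% had a ratio of at least 2 and 77.7% had an interval above 1. Of the 3 CaMKII genes with that many 3'UTR tags, Camk2b and Camk2d had a ratio of at least 2 with an interval above 1 and Camk2a had neither, although it had both with tags of at least 30 nt and with raw tags. Ratios of this size were thus common among 3'UTRs.

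The Camk2b 3'UTR had the densest binding of the family. It held 15 WT and 51 Mbnl1 KO tags with a ratio of 2.45 (1.36 to 4.69), which were 75.0% and 82.3% of the tags of the gene. Per kilobase of 3'UTR, this was 48.9 scaled tags in Mbnl1 KO. Ranked by density among 16667 genes with a 3'UTR of at least 200 nt, Camk2b came 253rd in WT and 312th in Mbnl1 KO. The cluster with the most tags of the whole family lay here, at chr11:5871279-5871331, 528 nt into the 3'UTR block, with 5 WT and 16 Mbnl1 KO tags at 17 distinct positions. Its ratio of 2.31 has an interval of 0.808 to 8.05. Its central window is the first of the sequences above, with 4 matches. A second cluster, at chr11:5871428-5871518, had 3 and 8 tags and no YGCY in its central window. Near the annotated end of the 3'UTR, a cluster at chr11:5869711-5869797 had 2 and 9 tags. The most distal cluster, at chr11:5869638-5869699, had 4 WT and 3 Mbnl1 KO tags, and all 4 WT tags there were single-base tags. Without single-base tags the Camk2b 3'UTR had 11 and 51 tags, a ratio of 2.28 (1.17 to 4.85). With tags of at least 2 reads the ratio was 1.76 (0.765 to 4.71), and with both kinds left out 1.48 (0.643 to 3.96), so these intervals include 1.

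The Camk2a 3'UTR held 14 WT and 32 Mbnl1 KO tags with a ratio of 1.65 whose interval of 0.855 to 3.34 includes 1. They were 82.4% of the WT and 64.0% of the Mbnl1 KO tags of the gene. None of them was a single-base tag, and with both tables scaled to their tags without single-base tags the ratio was 1.12 (0.583 to 2.28). With tags of at least 2 reads it was 0.954 (0.425 to 2.34), on the other side of 1. In contrast, it was 5.29 (1.51 to 28.3) with tags of at least 30 nt and 2.29 (1.19 to 4.64) with raw tags, where the interval lay above 1. Within this 3'UTR the sites differed. The site at chr18:61146175-61146224, 1765 nt into the block, had no WT and 9 Mbnl1 KO tags at 6 positions, from 1130 reads. Set against a floor of 3 WT tags this is 2.16-fold, which is not a lower bound, because the exact interval begins at 1.42. No ratio was computed for this site with the scaling without single-base tags. A site upstream of it, at chr18:61145756-61145786, had 3 WT and 4 Mbnl1 KO tags with a ratio of 0.961 (0.163 to 6.56). The site at 1765 nt thus had tags in Mbnl1 KO alone and the other in both tables, and the difference between the sites was not tested.

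Camk2d differed from Camk2a and Camk2b in where its tags lay. Its 3'UTRs held 3 WT and 29 Mbnl1 KO tags with a ratio of 6.97 (2.16 to 35.8), while its other introns held 31 and 44, a ratio of 1.02 (0.632 to 1.68). The 2 intervals do not overlap. The share of Camk2d tags in the 3'UTR was 7.14% in WT (1.50% to 19.5%) and 37.7% in Mbnl1 KO (26.9% to 49.4%). Without single-base tags, the 3'UTRs held 3 of 25 WT and 29 of 67 Mbnl1 KO tags. Median ratios were also higher for 3'UTRs than for gene bodies over all genes with at least 20 pooled tags. They were 3.24 and 1.75, and 3.24 lies within the Camk2d 3'UTR interval. Introns alone were not compared over all genes. In the terminal 3'UTR block, chr3:126545676-126547972, the counts were 2 and 23, spread over 17 positions and not gathered at 1 site, and none of its clusters had more than 4 tags. The block of a short transcript at chr3:126519033-126521719 held 1 WT and 6 Mbnl1 KO tags, 3 of them in the printed window with 3 YGCY. With single-base tags left out, the 3'UTR ratio was 4.76 (1.47 to 24.4) and the intron ratio 1.23 (0.645 to 2.47), and these intervals do overlap. With tags of at least 2 reads, the Camk2d 3'UTRs held 0 WT and 20 Mbnl1 KO tags.

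Camk2g had few 3'UTR tags, 0 in WT and 6 in Mbnl1 KO. Set against a floor of 3 WT tags this is 1.44-fold, but the exact interval of the ratio begins at 0.849 and includes 1. Of the 6 tags, 4 lay in the terminal block at chr14:21554097-21556074 and 2 in the block of a short transcript at chr14:21573759-21574924. Its 3'UTR density in Mbnl1 KO was 3.73 scaled tags per kilobase, below the 19.2 of Camk2a, the 48.9 of Camk2b and the 11.9 of Camk2d.

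**Figure D3:**
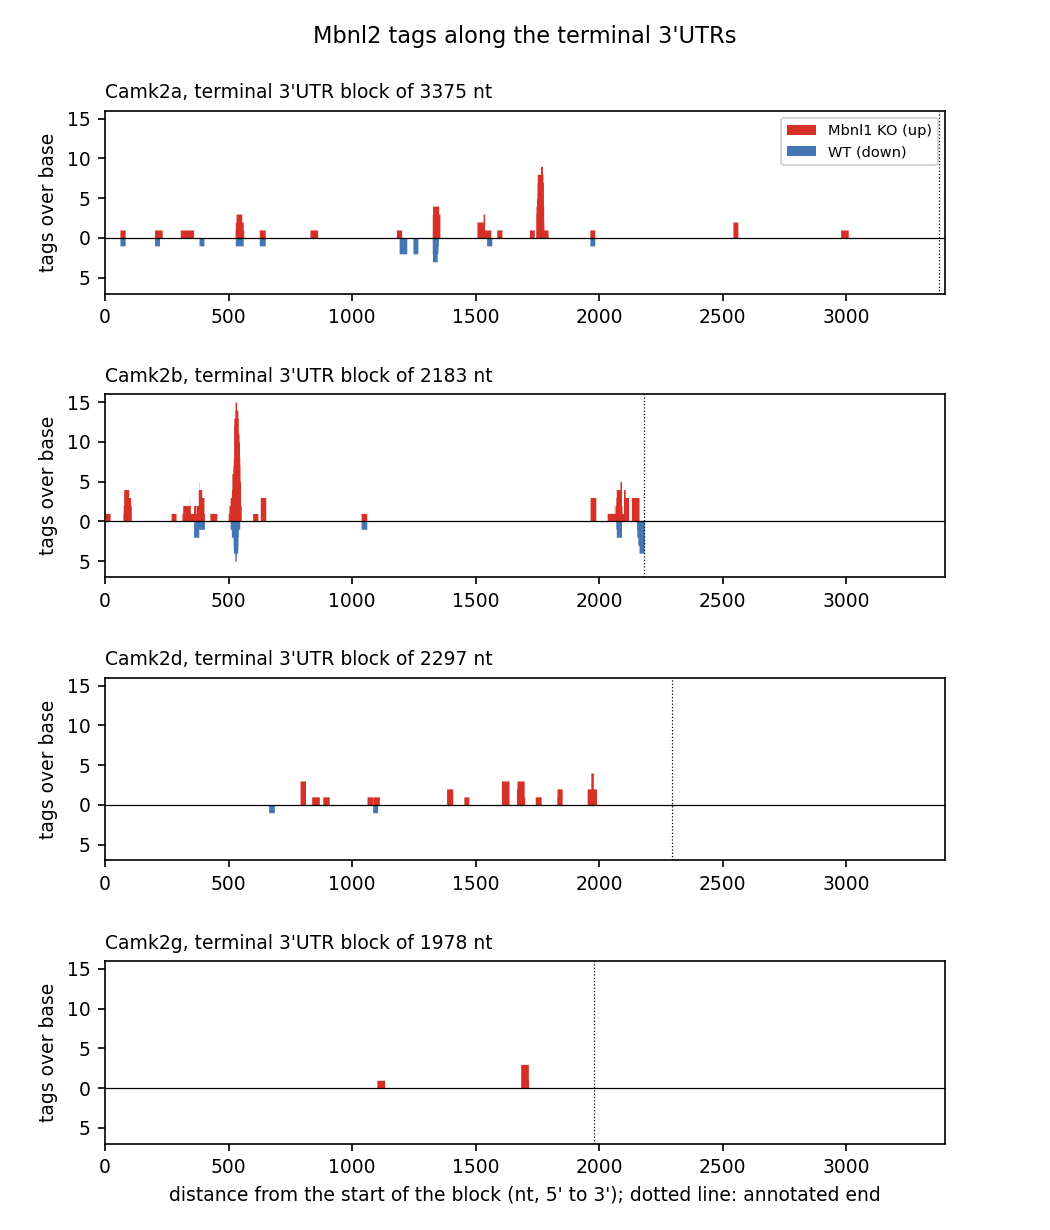
Tags over each base of the terminal 3'UTR block of each Camk2 gene, against the distance from the start of the block in nt, with Mbnl1 KO upwards in red and WT downwards in blue, in raw tags. Camk2b has its tallest site 528 nt into the block in both genotypes, Camk2a has a site at 1765 nt in Mbnl1 KO alone, and Camk2d tags are spread over many positions.

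YGCY was frequent under the 3'UTR sites. Of the 19 clusters of at least 3 pooled tags in CaMKII 3'UTRs, 12 (63.2%) had at least 1 match in the central 30 nt and 5 (26.3%) at least 2. Among 887697 consecutive 30-nt windows of all annotated 3'UTRs, 28.1% had at least 1 and 5.13% at least 2. The 465 windows of the CaMKII 3'UTRs themselves were close to that, with 30.5% and 5.59%. By gene, the clusters with at least 1 match were 4 of 5 in Camk2a, 4 of 7 in Camk2b, 4 of 6 in Camk2d and 0 of 1 in Camk2g. Of the 15 clusters outside 3'UTRs, 8 (53.3%) had a match. A match is a description of these letters and not proof of a contact, and no test was made of these shares.

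The variable linker exons and their flanks are short and held few tags. In the annotation the 4 genes have 12 such exons, 1 in Camk2a, 6 in Camk2b, 3 in Camk2d and 2 in Camk2g. With 300 nt on each side they held 2 WT and 5 Mbnl1 KO tags with a ratio of 1.80 (0.295 to 18.9), or 1.23 (0.201 to 12.9) without single-base tags, so no difference was detectable at this depth. Per kilobase, these were 0.752 scaled tags in WT and 1.36 in Mbnl1 KO, above the 0.289 and 0.427 of the other introns, but they rest on 2 and 5 tags. Camk2a had no tag there in either genotype, and a count of 0 allows up to 8.73 scaled tags in WT and 6.30 in Mbnl1 KO.

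Single linker tags were as follows. In Camk2b, 1 Mbnl1 KO tag of 43 reads covered the 3' end of the 72-nt exon at chr11:5882504-5882575, and 1 WT tag of 64 reads lay 10 nt upstream of the 114-nt exon at chr11:5878402-5878515. Both hold overlapping or adjacent YGCY. In Camk2d, 1 WT tag lay 96 nt upstream of the 60-nt exon and 1 Mbnl1 KO tag 91 nt upstream of the 42-nt exon, each with 1 read and no YGCY. In Camk2g, all 3 tags came from Mbnl1 KO, of which 1 with 1 read lay 34 nt downstream of the 33-nt exon and 2 identical tags, with 5 reads in all, lay 126 nt downstream of the 69-nt exon. The Camk2g tag nearer its exon has 5 YGCY in the printed window, the most of any linker tag.

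Over the whole linker with its introns, the counts were 4 WT and 16 Mbnl1 KO tags with a ratio of 2.88 (0.930 to 11.9). Camk2g contributed 0 and 7. Set against a floor of 3 WT tags this is 1.68-fold, which is not a lower bound, because the exact interval begins at 1.04. Camk2a contributed 0 and 4, Camk2b 2 and 4, and Camk2d 2 and 1.

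**Figure D4:**
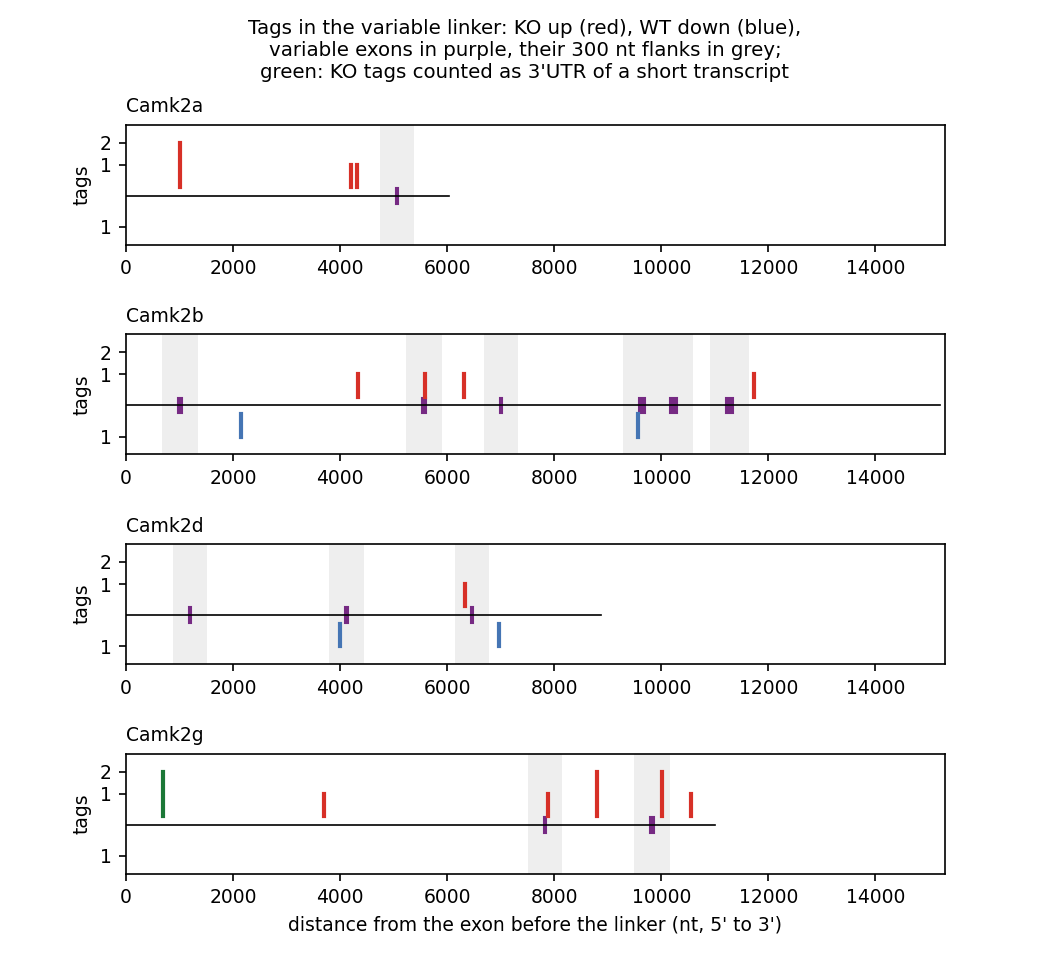
Position of each tag in the linker of the 4 genes, in nt from the exon before it, with Mbnl1 KO tags upwards and WT tags downwards and line height giving the number of tags. Purple boxes are variable exons and grey bands their 300 nt flanks, which hold 2 WT and 5 Mbnl1 KO tags in all, while green marks 2 Mbnl1 KO tags counted in the 3'UTR of a short Camk2g transcript.

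Outside the linker exons and their flanks, introns held 42 WT and 86 Mbnl1 KO tags with a ratio of 1.48 (1.01 to 2.19). The interval included 1 without single-base tags, at 1.61 (0.987 to 2.73). Some of these intron tags lay in introns of the linker and are also part of the whole-linker counts above. Camk2g introns had 4 and 23 tags, a ratio of 4.15 (1.42 to 16.5), and 2.46 (0.824 to 9.90) without single-base tags. In Camk2d, 17 of the 31 WT and 9 of the 44 Mbnl1 KO intron tags were single-base tags. The A-rich stretch printed above held 11 WT and 3 Mbnl1 KO tags at chr3:126391696-126391742, all of them single-base, and it was the intron site with the most tags in the family. Other Camk2d intron sites were seen in Mbnl1 KO alone, such as chr3:126320923-126320946 with 4 tags from 10283 reads. Reads are not independent molecules, and that site counts as 4 tags.

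Other coding exons held 3 WT and 12 Mbnl1 KO tags. In Camk2a, 5 Mbnl1 KO tags at 3 positions and no WT tag lay at chr18:61123485-61123515, over the start codon at position 61123501 of the annotated short transcripts Camk2a-004 and Camk2a-007, which begin at an internal first exon as αKAP does. The exact interval of that ratio begins at 0.661, so it includes 1. In Camk2g, 4 Mbnl1 KO tags and no WT tag covered a coding exon at chr14:21598438-21598470. Camk2d had the opposite order, with 3 WT and 0 Mbnl1 KO coding tags, whose interval of 0 to 1.74 also includes 1.

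The kinds of tags also differed between genotypes in the CaMKII genes, in the same direction as in the whole tables. Single-base tags were 24 of 83 in WT and 15 of 225 in Mbnl1 KO (28.9% and 6.67%), and 17 of the 24 were in Camk2d. Tags of 1 read were 61.4% and 38.7%. Identical tags listed more than once added 9 and 55 tags, and counted by distinct positions the 4 genes had 74 and 170. Tags with several exact matches in the genome were 15.7% and 3.56%. On the opposite strand of the 4 genes lay 19 WT and 30 Mbnl1 KO tags.

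Of 36 other calcium and calmodulin genes, 15 had at least 20 pooled tags. Of these 15, 8 had a ratio of at least 2, beside 41.6% of all genes, and the median was 2.15, beside 2.18 for the CaMKII genes and 1.75 for all genes. The ratio was 3.64 (2.59 to 5.22) for Ppp1cb, a catalytic subunit of protein phosphatase 1, from 41 WT and 207 Mbnl1 KO tags. Among the kinases, Mylk4 had a ratio of 2.25 (1.71 to 2.99), Camk1d 2.15 (1.52 to 3.08), Dapk2 4.06 (2.48 to 7.01) and Mylk2, the myosin light chain kinase of skeletal muscle, 2.88 (1.05 to 9.83). Camk4 was the other way, with 34 and 19 tags and a ratio of 0.403 (0.217 to 0.727). Of the calmodulins, Calm2 had a ratio of 3.60 (1.21 to 14.5) and Calm3 1.98 (0.850 to 5.15). Ryr1, the calcium release channel of skeletal muscle, had 2.36 (1.67 to 3.39). Hdac4, a class IIa histone deacetylase that CaMKII phosphorylates, had 15 WT and 60 Mbnl1 KO tags and a ratio of 2.88 (1.62 to 5.47). The intervals of Mylk (1.44), Phkg1 (1.01), Dapk1 (0.541), Ryr2 (0.927) and Creb1 (1.44) included 1. The CaMKII inhibitor genes had almost no tags, with 2 WT and 1 Mbnl1 KO for Camk2n1 and 0 and 1 for Camk2n2.

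By tags, the genes most like Camk2d, taken as those with a similar number of pooled tags, mostly in introns, and the nearest ratio over the 2 tables, were Mll3 (43 and 78 tags, ratio 1.31), Arhgap24 (42 and 76, ratio 1.30) and Gpc6 (50 and 93, ratio 1.34), out of 246 genes in that range.

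Marker genes of muscle fibres were tagged throughout and those of heart were nearly absent. All 7 muscle fibre genes were tagged, with 833 WT and 2914 Mbnl1 KO tags, while the 3 heart genes had 4 and 3, and Nppa and Myl7 were at 0. The 4 neuron genes had 22 and 32 tags, of which 18 and 21 came from Rbfox3. They are of interest because Camk2a and Camk2b are the main neuronal genes of the family, although skeletal muscle also makes αKAP from Camk2a. The 3 Schwann cell genes had 11 and 51 tags, of which 5 and 39 came from Pmp22, and the 3 fibroblast genes 143 and 596. The 2 endothelial genes had 29 and 73, the 2 leukocyte genes 9 and 8 and the smooth muscle gene 11 and 15. The part of these cell types in the CaMKII tags was not tested.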

How the data were processed

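Quadriceps reads were quality filtered by the authors and mapped to mm9 using BWA (version not given in the sources used here). Short reads and likely PCR duplicates were dropped, and the 3 mice per genotype were merged. The deposited values are counts, 1 per tag, giving how many reads that tag stands for, and are not normalized. The tables hold 343554 and 476543 tags.

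Tags were counted on the strand of each gene of the GENCODE annotation of mm9 (NCBIM37) using scipy 1.17.1, pandas 2.3.3, numpy 2.4.6 and Python 3.11.15, samtools 1.23.1 for the genome and matplotlib 3.10.9 for plots. A tag was given 1 class, in the order 3'UTR, linker exon with flanks, other coding exon, 5'UTR, exon of a non-coding transcript, intron. Linker exons are coding exons after codon 300 with at least 130 codons left that some coding transcript skips. Clusters are overlapping tags, pooled, with at least 3 tags. Ratios have exact 95% Clopper-Pearson intervals. With 1 table per genotype, no p-value was computed. The code was tested on simulated counts.

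The members and lists were chosen with earlier results of these data known. Named were the 4 members and their clusters, the listed calcium and calmodulin genes with at least 20 pooled tags, with the CaMKII inhibitor genes also given (where the annotation has 2 records of a symbol, as for Hdac4, the longer was used), and the 3 genes nearest to Camk2d with 0.8 to 1.25 times its tags. Alternatives tried were raw tags, another scaling, collapsing tags, tags of at least 30 nt, midpoints, leaving out single-base tags or tags of 1 read, other flanks, other minimums of tags, and, chosen after seeing the data, tags with 1 match in the genome.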

Additional observations from a re-analysis of the deposited data

How the results depend on the processing

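No paired analysis was possible because each genotype has a single merged table, and for the same reason no mouse could be left out. No ratio of a gene body, of the 3'UTRs together or of the introns together fell below 1 under the alternatives run. The ratio of the 4 genes together was 2.71 with raw tags, 3.15 with tags of at least 30 nt and 1.41 (0.944 to 2.17) with single-base tags and tags of 1 read both left out. Camk2a was 4.17 with tags of at least 30 nt and 1.15 (0.538 to 2.73) with both left out, and the 3'UTRs were 5.46 and 1.59 (0.920 to 2.91). With raw tags 62.9% of all genes had a ratio of at least 2. The Camk2d interval lay above 1 only with raw tags, at 1.83, and with tags of 1 match in the genome, at 1.60 (1.04 to 2.51). The Camk2b and Camk2g intervals included 1 once tags of 1 read were left out, at 1.49 and 3.36. The linker ratio ran from 0.627 to 2.88 and its interval always included 1. With tags of at least 30 nt, Camk2g and the linker had no WT tag and gave no ratio. The cause of these changes was not tested. Few WT tags limit the linker (2), the Camk2d 3'UTRs (3), coding exons (3), Camk2g (4) and the Camk2g 3'UTRs (0).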
